A study of Homo sapiens with 6 samples.

Results

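Nuclear hormone receptors are transcription factors, many of which are switched by a small fat-soluble ligand such as a steroid, a retinoid, thyroid hormone or a fatty acid. The genes described here are 46 members of the family, chosen by gene symbol. Of these, 39 were measured by at least 1 probe set that the array's annotation assigns to a single gene symbol, out of 19775 genes measured in that way. NR1D1 lies only on 3 probe sets that are annotated to both NR1D1 and THRA. NR1H2, NR1H4, NR1I2, HNF4A, NR2F2 and NR0B1 had no probe set in the annotation used, so their expression was not measured here. The study compared 3 arrays of MDA-MB-231 cells that received an expression plasmid for HS3ST2, a heparan sulfate sulfotransferase, with 3 arrays of the same line that received a control vector. MDA-MB-231 is an established human breast cancer cell line. The labels call the replicates independent, and do not give the plasmid's promoter, the time after transfection or the share of cells that took up the plasmid.

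A nuclear receptor typically carries a DNA-binding domain that reads short half-sites and a ligand-binding domain that recruits coactivators or corepressors. Steroid receptors usually bind as pairs of the same receptor and are held ready by chaperones of the HSP90 system, whereas retinoic acid, thyroid hormone, vitamin D, LXR and PPAR receptors pair with an RXR. Orphan receptors, such as the NR4A and COUP families, act largely through their own abundance. In breast tissue the family is best known for the oestrogen and progesterone receptors, and MDA-MB-231 is commonly described as lacking both.

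All values are log2 intensities that had been centred on each probe set's own median over the 6 arrays, so they show differences between arrays and carry no level. Levels of different receptors could not be compared, and the label of the line could not be checked against marker levels. The only HS3ST2 probe set used read 0.16, 0.04 and -0.04 on the HS3ST2-labelled arrays, against -0.22, 0.17 and -0.11 on the control arrays. These ranges overlap, the difference was 0.11 ± 0.10 (SE; limma adjusted p = 0.523), and the group labels were therefore not checked by the transfected gene. The median of 6 ribosomal RNA control probe sets was 0.02, 0.16 and 0.74 on HS3ST2-labelled arrays and -0.20, -0.06 and -0.29 on control arrays. The exact two-sided permutation p was 0.1, the smallest that 3 against 3 arrays allow. The part of this signal in the receptor differences was not tested. Of markers of other cell types, 0 of 5 leukocyte and 0 of 6 fibroblast genes were called (1 and 0 at an unadjusted p under 0.05 in limma). In the other lists, 1 of 4 endothelial genes was higher (VWF, by 0.27) and 3 of 5 lung and thyroid genes were higher. The share of all genes called was 24.5%, with 11.5% higher and 13% lower. Of 8 markers of breast cancer lines, 1 was higher and 3 were lower, with differences from -0.59 to 0.26 (median 0.11). The list mean was -0.05 to 0.01 on HS3ST2-labelled arrays and -0.03 to 0.05 on control arrays. That mean combines genes that differed in opposite directions. The mean over the lung and thyroid list was 0.51 to 0.55 on HS3ST2-labelled arrays and -0.67 to -0.53 on control arrays, with NKX2-1, at a difference of 3.73, far above the list's median of 0.44. The part of these markers in the receptor differences was not tested.

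Between HS3ST2-labelled and control arrays, 8 receptor genes were higher and 2 were lower, while 29 of the 39 were not called. NR2F1, the orphan receptor COUP-TFI, had the largest difference at 0.77, followed by the mineralocorticoid receptor NR3C2 at 0.53 and the retinoic acid receptor RARB at 0.42. NR0B2, PPARG, NR1H3, RORA and RXRA were also higher. The lower genes were NR4A2 at -0.48 and HNF4G at -0.33. A gene was called at an adjusted p under 0.05 in limma, with Benjamini-Hochberg adjustment over all 19775 genes and 3 arrays per group. The called share of the receptors was 25.6%, and 24.5% of all genes were called, so the family's share was near the background. Of the receptors, 20.5% were higher and 5.13% lower, against 11.5% and 13% of all genes. Leaving out 1 array moved the number of higher receptors to between 5 and 7, with 5 without HS3ST2 replicate 1 and 5 without control replicate 2. With HS3ST2 replicate 3 left out, whose ribosomal RNA value stood out, 6 were higher and 2 lower.

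**Figure D1:**
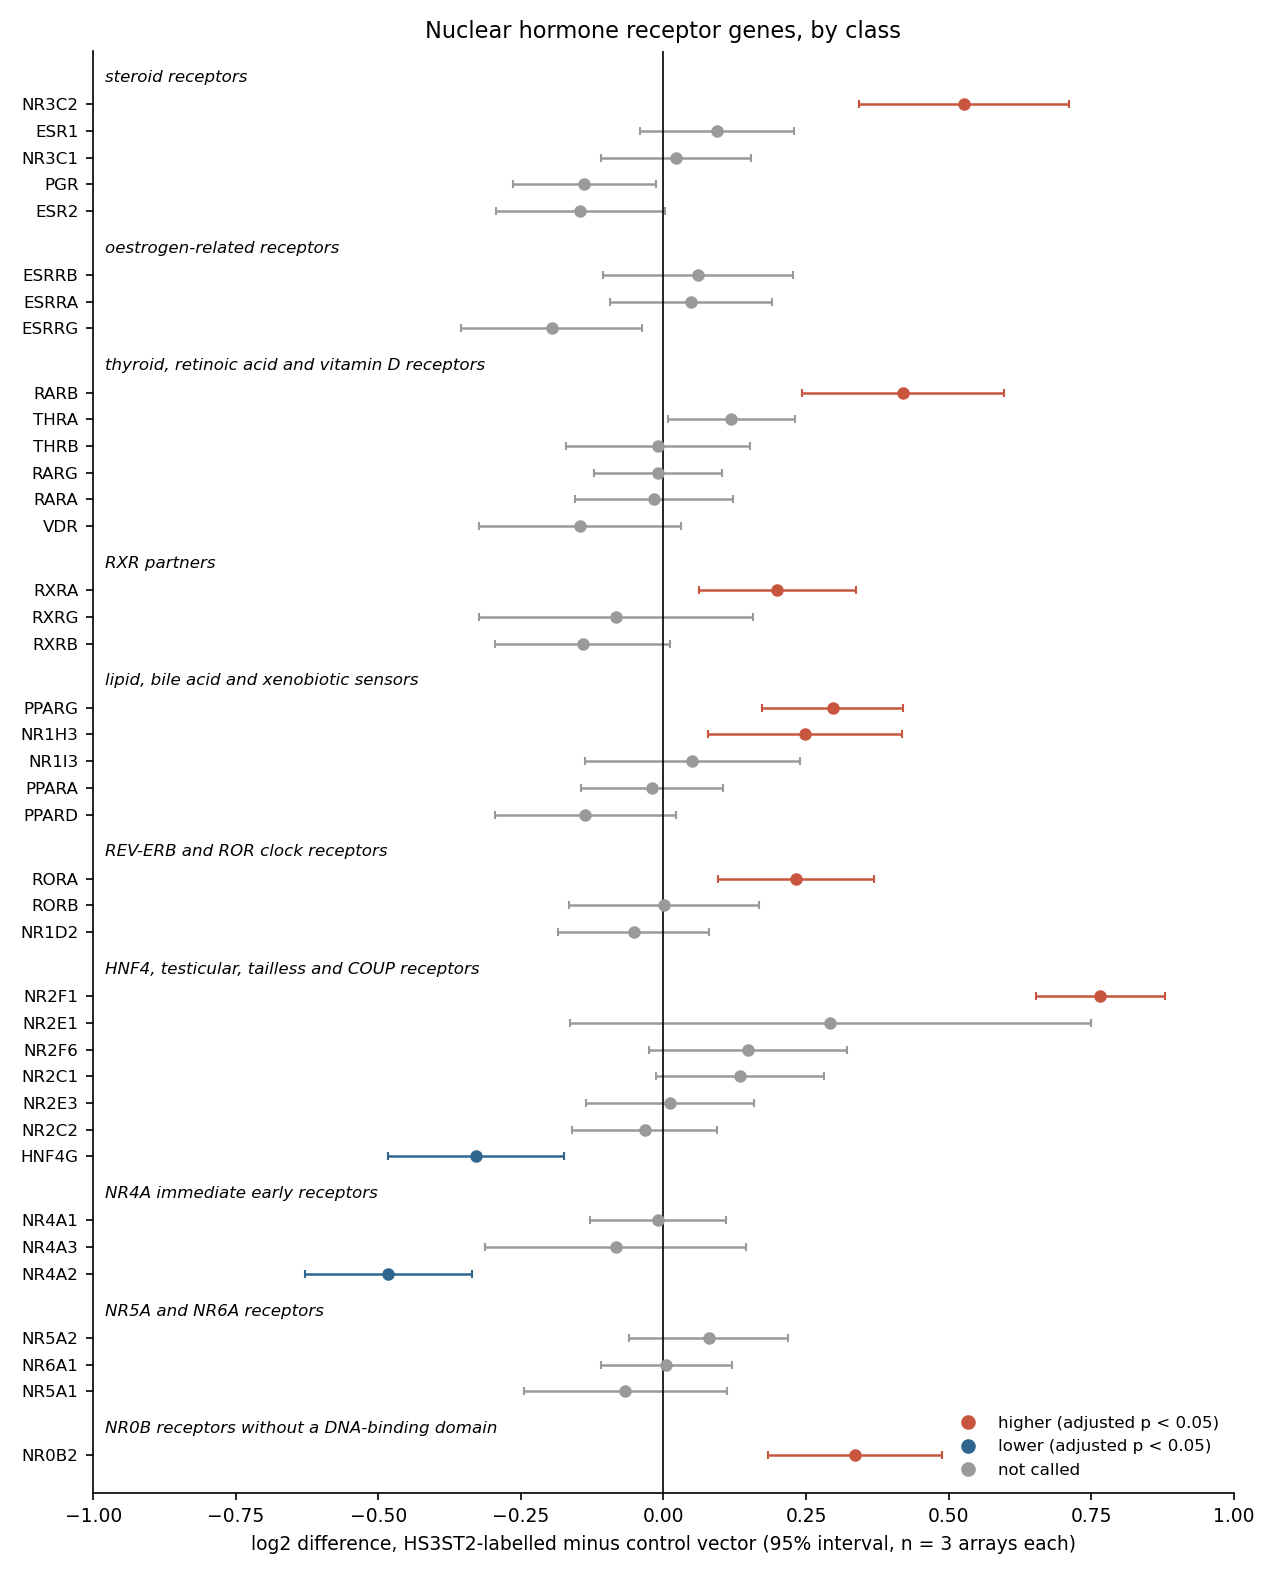
The horizontal axis gives the log2 difference, HS3ST2-labelled minus control vector, for each of the 39 measured receptor genes, grouped by class, with bars for the 95% interval from limma (n = 3 arrays each). NR2F1 lies farthest from 0 at 0.77, and 29 receptors, drawn in grey, were not called.

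The size of the receptor differences was also like that of the array as a whole. The median difference was 0.00 over the receptors and 0.01 over all genes, and the median absolute difference was 0.119 over the receptors and 0.115 over all genes. Among called genes, the median absolute difference was 0.332 for receptors and 0.345 for all genes. None of the 39 receptors reached a log2 difference of 1, which 191 of all genes did, and 413 genes (2.09%) had a larger absolute difference than NR2F1. The 3 HS3ST2-labelled arrays lay wholly above or below the 3 control arrays for 13 receptors (33.3%), against 40.4% of all genes. They lay above for 9 receptors, where the share over all genes was 19.5%, and below for 4, where it was 20.9%. These 13 were the 10 called genes, THRA above, and PGR and ESRRG below.

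RARB is itself a textbook target of retinoic acid, through a response element near one of its start sites. That element is a direct repeat of a half-site with a spacer of 5 bases. The RefSeq promoter window of this start (GRCh38.p14, chr3:25428013-25428312, plus strand, 250 bases before to 50 bases after the start) held such a repeat at positions -53 to -37 relative to the start, on the gene's own strand. RARB had 4 windows and PPARG had 6, and for each gene only 1 held a searched motif. The PPARG window at chr3:12287118-12287417, also on the plus strand of GRCh38.p14, held the single extended half-site read by NR4A receptors, at positions -186 to -179. Of the 10 called receptors, 7 had a window that was searched, and HNF4G, NR4A2 and NR0B2 were not searched. The RARB and PPARG windows described are shown, with the motif in capitals. No other window of those 7 receptors held a searched motif.

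RARB: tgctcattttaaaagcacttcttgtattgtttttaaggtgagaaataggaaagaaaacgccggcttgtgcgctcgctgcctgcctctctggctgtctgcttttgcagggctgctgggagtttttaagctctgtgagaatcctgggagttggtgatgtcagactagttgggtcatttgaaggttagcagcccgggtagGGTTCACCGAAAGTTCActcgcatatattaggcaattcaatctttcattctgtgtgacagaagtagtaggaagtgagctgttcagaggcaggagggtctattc

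PPARG: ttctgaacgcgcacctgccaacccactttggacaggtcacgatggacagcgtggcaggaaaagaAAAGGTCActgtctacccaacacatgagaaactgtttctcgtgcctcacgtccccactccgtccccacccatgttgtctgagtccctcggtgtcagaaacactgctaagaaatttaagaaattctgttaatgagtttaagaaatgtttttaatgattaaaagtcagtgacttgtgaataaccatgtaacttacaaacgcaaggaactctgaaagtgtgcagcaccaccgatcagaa

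The half-sites searched were the consensus AGGTCA, its relative GGGTCA, the variant AGTTCA and the form GGTTCA. Direct repeats of any pair with spacers of 1 to 5 bases, inverted repeats with a spacer of 3 bases, and the extended half-site AAAGGTCA were sought on both strands. The last motif contains AGGTCA, and a repeat could overlap it. Over 35116 promoter windows, the repeat with a spacer of 5 bases was in 31 (0.0883%) and AAAGGTCA in 427 (1.22%). The 41 receptor genes with a window had 96 windows, of which 1 (1.04%), that of RARB, held the repeat with a spacer of 5 bases and 4 (4.17%) held AAAGGTCA. The other windows with AAAGGTCA belonged to ESRRG, NR2E1 and ESR2, none of which was called. Neither NR2F1 window held any of these motifs. The motif of RARB was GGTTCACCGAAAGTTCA. A window of CYP26A1, an enzyme that clears retinoic acid, held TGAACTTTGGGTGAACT, the same kind of repeat on the strand opposite to the gene (GRCh38.p14, chr10:93073643-93073942, positions -90 to -74). CYP26A1 differed by 0.06 ± 0.05 (SE; limma adjusted p = 0.462) and was not called. Its relative CYP26B1 was higher, with a difference of 0.42 ± 0.08 (SE; limma adjusted p = 0.00608). A match in these letters describes the window and does not show binding.

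RARB averaged 0.30, 0.25 and 0.04 on HS3ST2-labelled arrays, against -0.20, -0.20 and -0.28 on control arrays. The groups did not overlap, and HS3ST2 replicate 3 was the lowest of its group. The difference was 0.42 ± 0.08 (SE; limma adjusted p = 0.00525). This mean hid a wide spread among its 5 probe sets. Probe set 205080_at read 0.34, 0.39 and 0.46 on HS3ST2-labelled arrays and -0.42, -0.42 and -0.34 on control arrays, a difference of 0.79 (limma adjusted p = 0.000309). Probe set 208530_s_at read 0.34, 0.34 and 0.37 on HS3ST2-labelled arrays and -0.34, -0.67 and -0.60 on control arrays, a difference of 0.89 (limma adjusted p = 0.000859). The other 3 probe sets, with differences of 0.03, 0.14 and 0.25, were not called. Neither of the other retinoic acid receptors was called, with RARA at -0.02 (95% interval -0.16 to 0.12) and RARG at -0.01 (-0.12 to 0.10).

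RXRA, a common partner of these receptors, read 0.12, 0.12 and 0.03 on HS3ST2-labelled arrays and -0.05, -0.19 and -0.10 on control arrays. All HS3ST2-labelled values were above all control values, by a narrow margin. The difference was 0.20 ± 0.06 (SE; limma adjusted p = 0.043), and leaving out any 1 array other than control replicate 1 ended the call, with adjusted p up to 0.133. RXRB, at -0.14, and RXRG, at -0.08, were not called.

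The thyroid hormone receptors THRA, at 0.12, and THRB, at -0.01, were not called as genes. The vitamin D receptor VDR was not called either, with a mean difference of -0.15 (95% interval -0.32 to 0.03), although 1 of its 4 probe sets fell. Probe set 204254_s_at read -0.32, -0.33 and -0.28 on HS3ST2-labelled arrays, against 0.28, 0.45 and 0.32 on control arrays. Those values were far apart, with a difference of -0.67 ± 0.07 (SE; limma adjusted p = 0.000833), while the other probe sets of VDR stood at 0.05, -0.10 and 0.12. The single called THRA probe set, 35846_at, read 0.12, 0.23 and 0.09 on HS3ST2-labelled arrays and -0.29, -0.09 and -0.19 on control arrays (difference 0.33, limma adjusted p = 0.023), and lost its call without HS3ST2 replicate 1, HS3ST2 replicate 2, control replicate 1 or control replicate 3 (adjusted p up to 0.0793). Of the probe sets shared by NR1D1 and THRA, 204760_s_at was lower by 0.33 (difference -0.33, limma adjusted p = 0.0232) and the others were not called, and the gene behind that difference cannot be told apart.

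Among the steroid receptors, 1 of 5 was called. NR3C2, which binds aldosterone and cortisol, read 0.25, 0.18 and 0.40 on HS3ST2-labelled arrays and -0.38, -0.18 and -0.19 on control arrays. The groups were separate on its only probe set, and the difference was 0.53 ± 0.08 (SE; limma adjusted p = 0.00225). Its relative NR3C1, the glucocorticoid receptor, differed by 0.02, with a 95% interval of -0.11 to 0.15 over 5 probe sets, none of them called. The oestrogen receptor ESR1 stood at 0.09 (-0.04 to 0.23), ESR2 at -0.15 (-0.29 to 0.00) and the progesterone receptor PGR at -0.14 (-0.26 to -0.01), and none was called. Single probe sets of the oestrogen receptors were called in opposite directions. For ESR1, 1 of 9 (211233_x_at) read 0.15, 0.25 and 0.04 on HS3ST2-labelled arrays and -0.33, -0.19 and -0.04 on control arrays (limma adjusted p = 0.0494). For ESR2, 1 of 6 (211117_x_at) read -0.64, -0.11 and -0.43 on HS3ST2-labelled arrays and 0.14, 0.11 and 0.11 on control arrays (limma adjusted p = 0.0283). Both have IDs ending in _x_at, the suffix for probes that may hybridise to unrelated transcripts, and each lost its call when 1 of 5 arrays was left out, the exceptions being control replicate 3 for ESR1 and HS3ST2 replicate 2 for ESR2. The adjusted p then reached 0.146 for ESR1 and 0.0837 for ESR2. None of the oestrogen-related receptors was called, with ESRRA at 0.05, ESRRB at 0.06 and ESRRG at -0.20 (95% interval -0.35 to -0.04).

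Of the 5 measured receptors that sense lipids and foreign compounds, 2 were higher. PPARG, the main regulator of fat cell formation, read 0.12, 0.20 and 0.13 on HS3ST2-labelled arrays, against -0.13, -0.12 and -0.19 on control arrays. The gap between the groups was wider than the spread within either, and the difference was 0.30 ± 0.05 (SE; limma adjusted p = 0.00496) on 1 probe set. NR1H3, the oxysterol receptor LXR alpha, read 0.14, 0.15 and 0.06 on HS3ST2-labelled arrays and -0.06, -0.28 and -0.06 on control arrays. Its groups were separate, with control replicate 2 well below the other control arrays. The difference of 0.25 ± 0.07 (SE; limma adjusted p = 0.0432) passed in the fit over genes, its 1 probe set did not pass in the fit over probe sets, and leaving out any 1 array other than control replicate 1 ended the call, with adjusted p up to 0.119. PPARA, at -0.02 over 9 probe sets, PPARD, at -0.14, and the xenobiotic sensor NR1I3, at 0.05, were not called.

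Among the clock receptors, RORA, an activator of BMAL1 transcription, was higher. Its mean over 8 probe sets was 0.17, 0.05 and 0.13 on HS3ST2-labelled arrays and -0.18, -0.09 and -0.08 on control arrays. These groups did not overlap, and the difference was 0.23 ± 0.06 (SE; limma adjusted p = 0.0231). The largest difference of any receptor probe set was at 226682_at, with 0.35, 0.36 and 0.61 on HS3ST2-labelled arrays and -0.60, -0.67 and -0.35 on control arrays (0.98 ± 0.11, SE; limma adjusted p = 0.00107). The 8 probe sets ran from -0.08 to 0.98, and only 2 were called. The other called one, 210426_x_at (difference 0.39, limma adjusted p = 0.0321), lost its call when 1 of 5 arrays was left out (adjusted p up to 0.0933). The call on the gene mean was lost without HS3ST2 replicate 1, HS3ST2 replicate 3, control replicate 1 or control replicate 2. It was also lost without probe sets of _x_at or _s_at suffix (limma adjusted p = 0.0727). NR1D2, the REV-ERB beta repressor, stood at -0.05 and RORB at 0.00, and neither was called.

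In the HNF4, testicular, tailless and COUP group, 1 of 7 measured receptors was higher and 1 was lower. NR2F1, which had the largest difference of all receptors, read 0.36, 0.40 and 0.41 on HS3ST2-labelled arrays, against -0.36, -0.39 and -0.39 on control arrays. Replicates lay within a few hundredths of each other, and the difference of 0.77 ± 0.05 (SE; limma adjusted p = 3.99e-05) was a 1.70-fold higher signal on its 1 probe set. HNF4G, a relative of the liver and gut factor HNF4A, read -0.21, -0.19 and -0.06 on HS3ST2-labelled arrays and 0.09, 0.26 and 0.17 on control arrays. It was lower on every HS3ST2-labelled array, with a difference of -0.33 ± 0.07 (SE; limma adjusted p = 0.00882). NR2E1, the tailless homologue, was the least settled receptor, at 0.49, 0.50 and -0.27 on HS3ST2-labelled arrays and -0.13, -0.16 and 0.13 on control arrays. HS3ST2 replicate 3 went against the other HS3ST2-labelled arrays, and the interval ran from -0.16 to 0.75 (limma adjusted p = 0.342). The testicular receptors NR2C1, at 0.13, and NR2C2, at -0.03, the photoreceptor factor NR2E3, at 0.01, and the COUP relative NR2F6, at 0.15, were not called. NR2C1 had 1 called probe set of 4, 229956_at, which read 0.26, 0.15 and 0.24 on HS3ST2-labelled arrays and -0.37, -0.15 and -0.43 on control arrays (limma adjusted p = 0.00599). NR2F6 had 1 of 3, 209262_s_at, at 0.22, 0.12 and 0.13 on HS3ST2-labelled arrays and -0.12, -0.27 and -0.20 on control arrays (limma adjusted p = 0.0131, and 0.0514 without control replicate 2). The probe sets of NR2C2 pointed in opposite directions. Its called probe set 206038_s_at read -0.18, -0.10 and -0.09 on HS3ST2-labelled arrays and 0.09, 0.21 and 0.13 on control arrays (difference -0.27, limma adjusted p = 0.0316), and its other probe set stood at 0.20. Leaving out any 1 array other than control replicate 1 ended that call, with adjusted p up to 0.103.

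**Figure D2:**
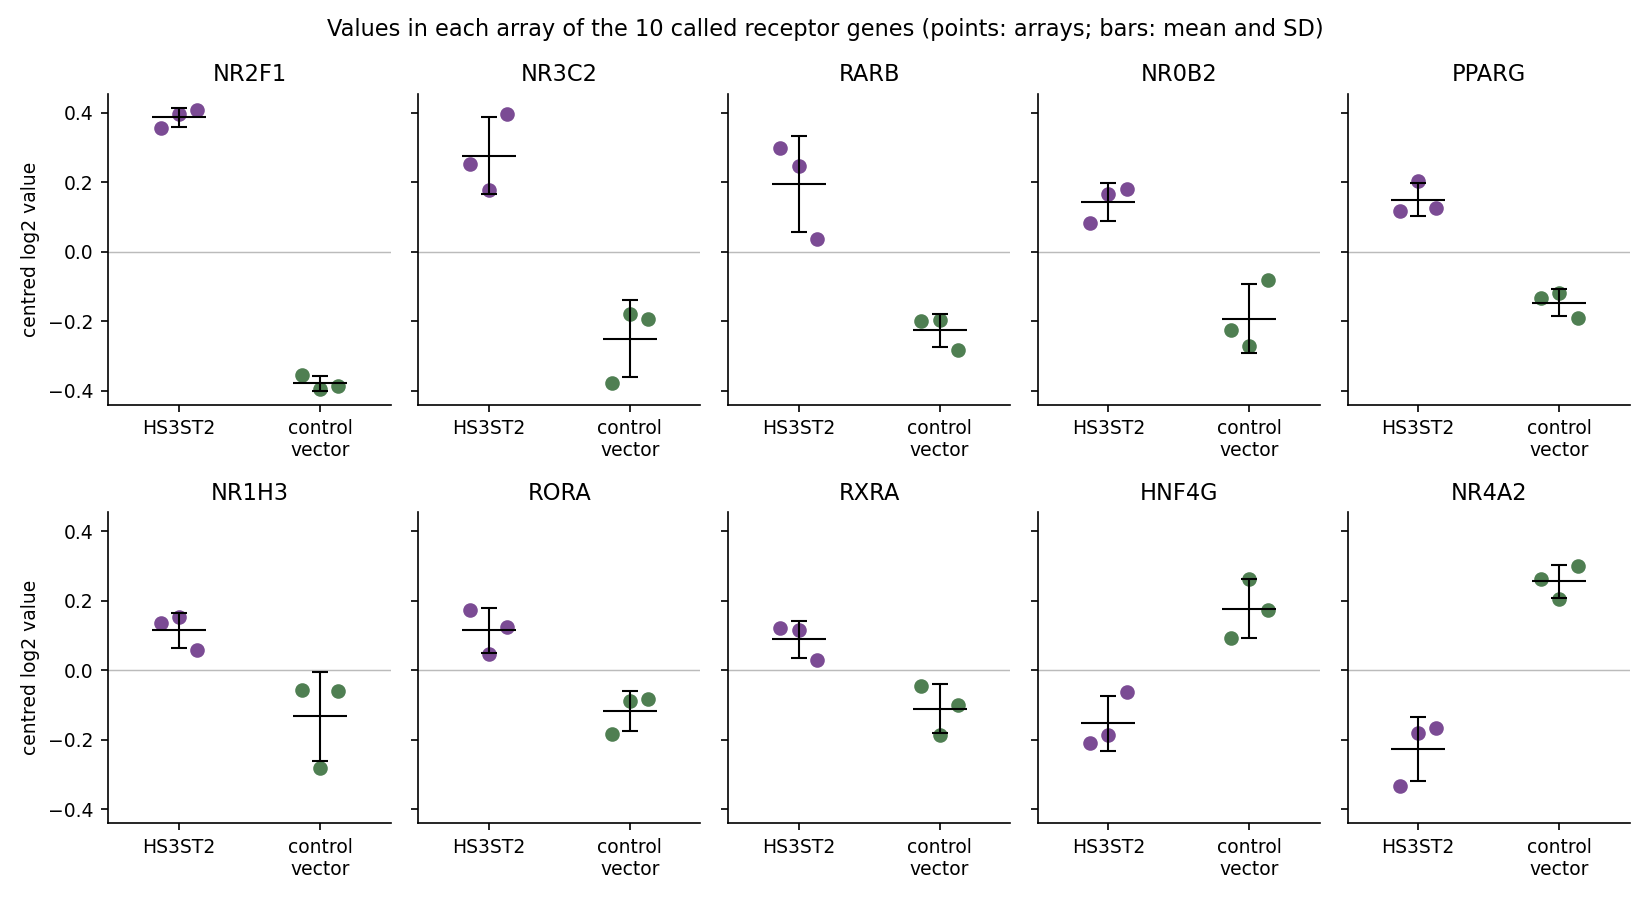
Each panel is 1 of the 10 called receptor genes, with the centred log2 value of each array on the vertical axis, HS3ST2-labelled arrays on the left and control vector arrays on the right, and bars for the mean and SD (n = 3 each). The groups are separate in every panel, with the widest gap for NR2F1 and narrow gaps for RXRA and NR1H3.

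Of the NR4A receptors, which are made quickly after many stimuli and bind DNA without a known natural ligand, only NR4A2 was called. It read -0.33, -0.18 and -0.17 on HS3ST2-labelled arrays, against 0.26, 0.21 and 0.30 on control arrays. Every HS3ST2-labelled value was below every control value, and the difference was -0.48 ± 0.06 (SE; limma adjusted p = 0.00116), with 2 of 3 probe sets called lower and the other at -0.36. All 3 have IDs ending in _x_at or _s_at. NR4A1 differed by -0.01 (95% interval -0.13 to 0.11) and NR4A3 by -0.08 (-0.31 to 0.14). The differences between these 3 genes were not tested. NR0B2, known as SHP, lacks a DNA-binding domain and represses other receptors by binding to them. It read 0.08, 0.17 and 0.18 on HS3ST2-labelled arrays and -0.23, -0.27 and -0.08 on control arrays. Its groups did not overlap, and the difference was 0.34 ± 0.07 (SE; limma adjusted p = 0.00754) on 1 probe set. The developmental receptors NR5A1, at -0.07, NR5A2, at 0.08, and NR6A1, at 0.00, were not called.

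How a receptor is scored depended on its probe sets. Of 127 receptor probe sets, 13 were higher and 6 lower (15.0% called), against 7.9% higher and 8.98% lower of all 54613 probe sets (16.9% called). Leaving out 1 array gave 8 to 10 higher and 3 to 6 lower, the lowest being 8 higher without control replicate 1 or control replicate 2 and 3 lower without control replicate 2. A called probe set was found in 16 receptors. In 7 of them (ESR1, ESR2, THRA, VDR, NR2C1, NR2C2 and NR2F6) the gene mean was not called, and no receptor had probe sets called in both directions. The differences of probe sets for the same gene spanned more than 0.5 in 8 receptors, widest in RORA. The transcript regions read by single probe sets were not used here.

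**Figure D3:**
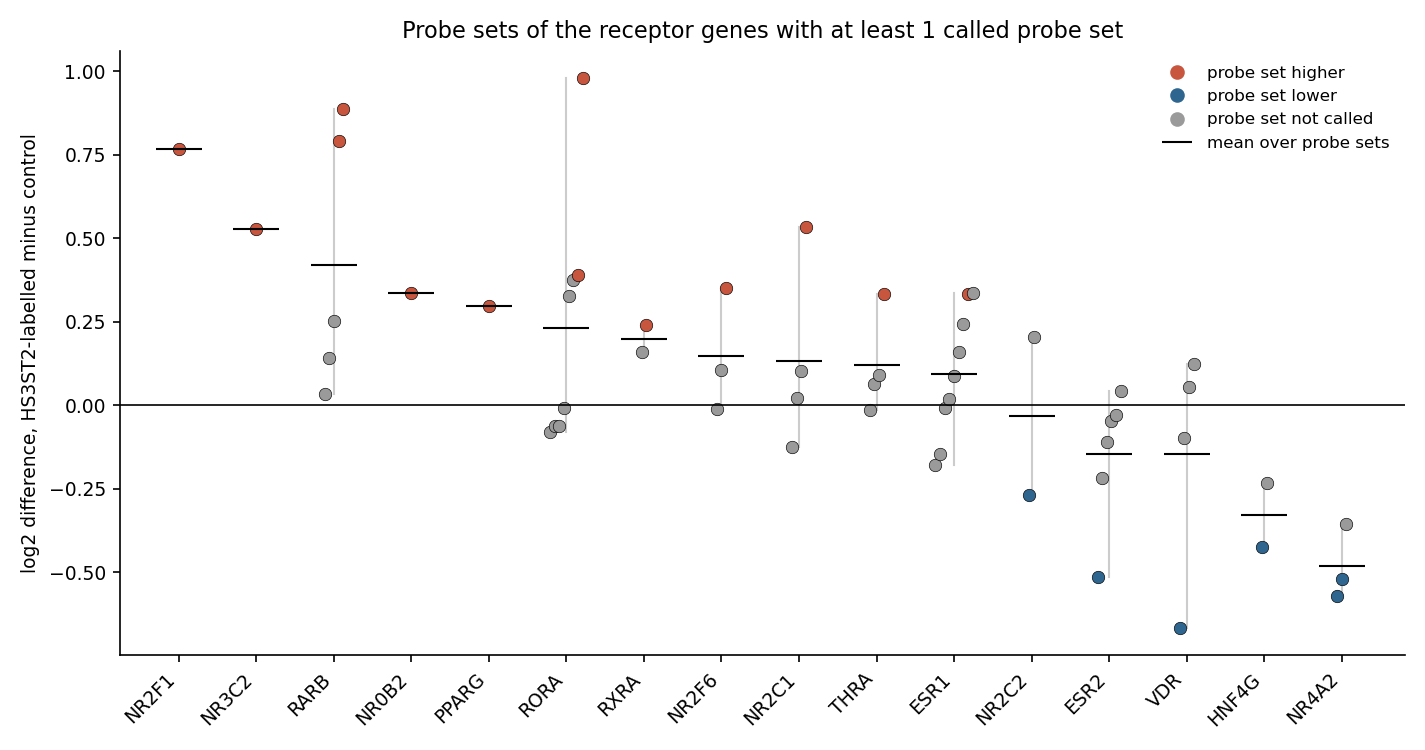
The vertical axis gives the log2 difference, HS3ST2-labelled minus control vector, of each probe set (points) for the 16 receptors with at least 1 called probe set, and the short lines give the mean over probe sets. RORA, RARB and VDR each have probe sets far from the rest, and in VDR the 3 probe sets that were not called lie between -0.10 and 0.12. The 9 probe sets of ESR1 spread from -0.18 to 0.34, and 1 of them was called.

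Genes that work with the receptors were described in 9 lists, some of which share genes with each other or with the receptors. Their counts are set beside the 24.5% of all genes called, 11.5% higher and 13% lower. The median difference over all genes was 0.01.

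Of 23 measured coactivators, 4 were higher and 4 lower, with a median difference of -0.01. NCOA1, which adds acetyl groups to chromatin at receptor-bound sites with its partners, was higher by 0.41, at 0.24, 0.15 and 0.32 on HS3ST2-labelled arrays and -0.17, -0.19 and -0.16 on control arrays (limma adjusted p = 0.0018). The groups were well separated. The PGC-related coactivator PPRC1 (-0.36), the oestrogen receptor scaffold PELP1 (-0.29) and the remodelling ATPase SMARCA4 (-0.21) were lower, and SMARCA4 stood at 0.15 (limma adjusted p = 0.282) once probe sets with _x_at or _s_at suffixes were left out. SMARCA4 also lost its call without HS3ST2 replicate 2 (limma adjusted p = 0.0538). With any 1 array other than HS3ST2 replicate 3 left out, 2 coactivators were higher, and 2 were lower without HS3ST2 replicate 2. Without the suffixed probe sets, 17 coactivators were measured and 0 were called lower in limma (3 at an unadjusted p under 0.05). PPRC1 and PELP1 were not among the 17. Of 14 corepressors, 1 was higher and 3 lower (median -0.02). The higher one was NRIP1, which binds ligand-bound receptors and recruits deacetylases, at 0.20, 0.22 and 0.29 on HS3ST2-labelled arrays and -0.28, -0.25 and -0.28 on control arrays (difference 0.51, limma adjusted p = 0.000323). The values did not overlap. GPS2, a subunit of the NCOR complex (-0.32), PHB2, which represses oestrogen receptors (-0.27), and the demethylase KDM1A (-0.27) were lower, and KDM1A lost its call without HS3ST2 replicate 3, control replicate 1 or control replicate 3 (adjusted p up to 0.0688). Without the suffixed probe sets, 9 corepressors were measured, of which 0 were higher (0 also at an unadjusted p under 0.05 in limma) and 1 was lower. NRIP1, GPS2 and KDM1A have no other probe sets and were not among the 9, so these counts do not bear on them.

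Of 13 measured receptor chaperones, 7 were lower and 2 higher, with a median difference of -0.24. FKBP5, which lowers the hormone affinity of the glucocorticoid receptor, read -0.37, -0.51 and -0.36 on HS3ST2-labelled arrays, against 0.48, 0.37 and 0.36 on control arrays. FKBP4, which favours hormone binding, read -0.20, -0.27 and -0.26 on HS3ST2-labelled arrays and 0.22, 0.24 and 0.26 on control arrays. Neither gene's groups overlapped, and the differences were -0.82 (limma adjusted p = 0.000104) and -0.48 (limma adjusted p = 0.00037). The HSP90 gene HSP90AB1 was lower by 0.37 (difference -0.37), and the co-chaperone BAG1 was higher by 0.32. Without probe sets of _x_at or _s_at suffix, 9 chaperones were measured, 4 were lower and FKBP4 stood at -0.04. Leaving out HS3ST2 replicate 1, 2 or 3, control replicate 1 or control replicate 3 gave 1 higher. The number lower was 5 to 6 with 1 array left out and 4 at an adjusted p threshold of 0.01.

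Of 32 genes that make, carry or clear ligands, 6 were higher and 5 lower, with a median of 0.02. CYP1B1, which oxidises oestrogens and retinol, read -0.52, -0.61 and -0.45 on HS3ST2-labelled arrays and 0.57, 0.47 and 0.41 on control arrays. FABP5, a carrier of fatty acids and retinoic acid, read -0.48, -0.40 and -0.52 on HS3ST2-labelled arrays and 0.54, 0.40 and 0.40 on control arrays. Both were lower on every HS3ST2-labelled array, by differences of -1.01 and -0.91. HSD17B2, which inactivates oestradiol, and SRD5A1, a steroid reductase, were higher by 0.64 and 0.62. Without probe sets of _x_at or _s_at suffix, 26 were measured and 3 were lower. CYP1B1 and FABP5 were not among the 26, so these counts do not bear on them.

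**Figure D4:**
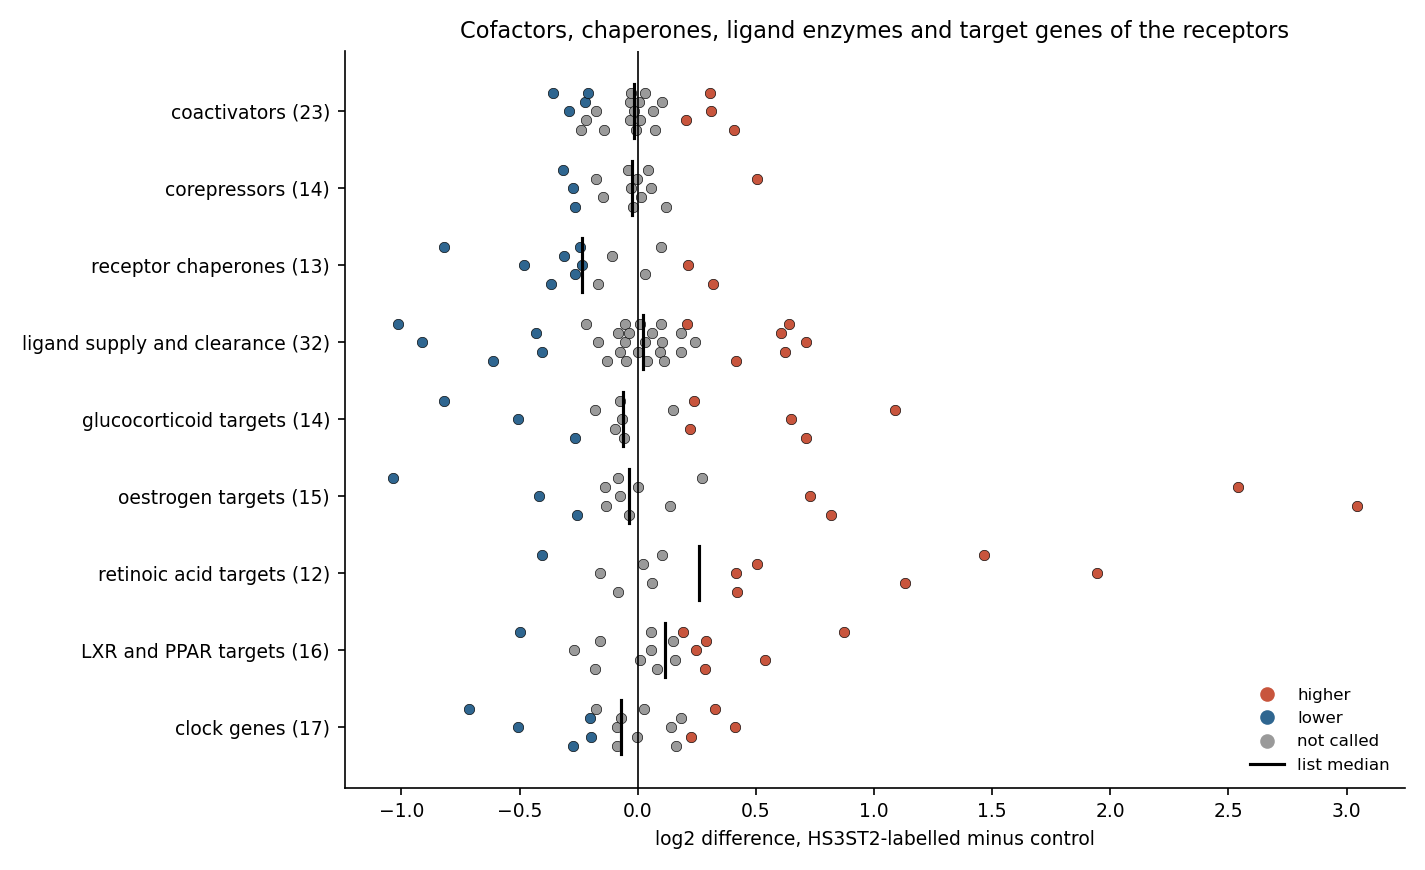
The horizontal axis gives the log2 difference, HS3ST2-labelled minus control vector, of each measured gene (points) in the 9 lists of receptor partners and targets, with the number measured in brackets and a line at each list's median (n = 3 arrays per group). The retinoic acid list has its median at 0.26 and the chaperone list at -0.24, and the other medians lie between -0.07 and 0.11.

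In each of the 4 lists of receptor targets, genes were called in both directions. Among 12 measured retinoic acid targets, 6 were higher and 1 was lower, at -0.41 (median 0.26). RARB and the corepressor NRIP1 are among the 6. PLAAT4, a phospholipase-like growth suppressor induced by retinoids, read 0.93, 0.99 and 0.88 on HS3ST2-labelled arrays and -0.88, -0.99 and -1.16 on control arrays, a difference of 1.94 (limma adjusted p = 7.19e-06). RARRES1 read 0.69, 0.67 and 0.59 on HS3ST2-labelled arrays and -0.69, -0.96 and -0.78 on control arrays, a difference of 1.46 (limma adjusted p = 1.82e-05). IGFBP3, which binds insulin-like growth factors, was higher by 1.13. All 3 genes had groups far apart relative to their spread, and 6 targets were higher whichever array was left out. Without probe sets of _x_at or _s_at suffix, 10 targets were measured, of which 4 were higher and 1 was lower. NRIP1 and IGFBP3 were not among the 10, so these counts do not bear on them.

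Of 14 glucocorticoid targets, 5 were higher and 3 lower (median -0.06), so genes of this list were called in both directions. The caveolar protein gene CAVIN2 read 0.52, 0.48 and 0.48 on HS3ST2-labelled arrays and -0.57, -0.58 and -0.63 on control arrays, a difference of 1.09. The stress gene GADD45B was higher by 0.71 and the transcription factor gene CEBPD by 0.65, whereas FKBP5, also in this list, was lower. Of 15 oestrogen targets, 4 were higher and 3 lower (median -0.04), with 1 lower without HS3ST2 replicate 2. PDZK1, a scaffold protein induced by oestrogen, read 0.43, 0.37 and 0.32 on HS3ST2-labelled arrays and -0.32, -0.36 and -0.64 on control arrays, and its groups did not overlap. The trefoil peptide genes TFF1 (3.04) and TFF3 (2.54) were higher and the carbonic anhydrase gene CA12 (-1.04) was lower.

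Of 16 LXR and PPAR targets, 6 were higher and 1 lower (median 0.11), and NR1H3 is 1 of the 6. FABP4, a fatty acid carrier of fat cells and a PPARG target, read 0.55, 0.36 and 0.54 on HS3ST2-labelled arrays and -0.50, -0.26 and -0.40 on control arrays, a difference of 0.87 (limma adjusted p = 0.000229). The groups were separate. The desaturase gene SCD, at 0.54, and the sterol-response factor gene SREBF1, at 0.28, were higher, and the lipid droplet gene PLIN2, at -0.50, was lower. Only 3 targets were higher without HS3ST2 replicate 2, HS3ST2 replicate 3, control replicate 2 or control replicate 3, and 2 were lower without control replicate 2. Without probe sets of _x_at or _s_at suffix, 14 targets were measured and 2 were higher. SCD was not among the 14.

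Of 17 clock genes, 3 were higher and 5 lower (median -0.07). BMAL2, a partner of CLOCK, read -0.36, -0.36 and -0.33 on HS3ST2-labelled arrays and 0.37, 0.39 and 0.34 on control arrays, a difference of -0.72 (limma adjusted p = 5.07e-05). The paired repressor genes differed in direction, with BHLHE41 at -0.51 and BHLHE40 at 0.41, and the repressor gene NFIL3 stood at -0.28. BHLHE41 stood at -0.08 without probe sets of _x_at or _s_at suffix, where 15 clock genes were measured and 3 were lower. Leaving out HS3ST2 replicate 2, HS3ST2 replicate 3, control replicate 2 or control replicate 3 also gave 3 lower.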

How the data were processed

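Total RNA of 6 samples (3 HS3ST2-transfected, 3 control vector) was hybridised to Affymetrix arrays. The deposited values are log2 intensities from RMA, per the submitters' processing notes. In the deposited table every probe set's median over the 6 arrays was 0 within 4.8e-07, so levels had been removed. The probe set annotation is that of the platform, with symbols updated through RefSeq names. Control probe sets were left out, and 54613 probe sets were tested. Genes were means of probe sets with 1 symbol, which gave 19775 genes, each receptor among them if measured.

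Groups were compared in limma 3.58.1 (R 4.3.3, lmFit and eBayes), HS3ST2 minus control vector, with Benjamini-Hochberg adjustment across all genes or all probe sets. The number of arrays limits the precision. The labels call the replicates independent without naming separate cultures, so p-values measure the spread between these samples, which may be technical. The code was tested on simulated data.

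The receptors and all lists were chosen with earlier results of these data known. Every receptor is accounted for. From each list, at most the 4 called genes with the smallest p are named, and the marker genes come from fixed lists. Beyond these, CYP26A1 and CYP26B1 are named with the promoter motifs. Promoter windows are those of RefSeq (GRCh38.p14) outside chromosome 8. Alternatives were a replicate block, each array left out, quantile normalization, median centring, array weights, robust eBayes, other probe set rules and an adjusted p threshold of 0.01.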

Additional observations from a re-analysis of the deposited data

Results flagged for a closer look

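The ribosomal RNA control probe sets, which enter no comparison of the receptors, gave a signal above the control arrays. Their median was higher on HS3ST2-labelled arrays by 0.49 on the log2 scale, at 0.31 ± 0.38 on HS3ST2-labelled arrays and -0.18 ± 0.12 on control arrays (SD, n = 3 each; exact two-sided permutation p = 0.1, the smallest possible). HS3ST2 replicate 3 was the highest at 0.74. The part of this signal in the receptor differences was not tested.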

How the results depend on the processing

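Of the 10 called receptors, 7 (NR2F1, NR3C2, RARB, NR0B2, PPARG, HNF4G and NR4A2) stayed called in the fit over genes. This held at adjusted p under 0.05 in every alternative in which they were measured, and RXRA, RORA and NR1H3 did not stay called. In the fit over probe sets, leaving out 1 array could end the call of the only NR0B2 probe set (limma adjusted p up to 0.0724). The same held for the only PPARG probe set (up to 0.0645) and the called HNF4G probe set (up to 0.0566). Receptors called higher, 8 as reported, numbered 5 to 7 with 1 array left out, 5 with the replicate block and 5 at an adjusted p threshold of 0.01. They numbered 10 with each gene taken from its probe set of largest SD and 4 without _x_at and _s_at probe sets. In the latter run 32 receptors and 7 of the called ones were still measured, while RXRA, PPARG and NR4A2 were not. Receptors called lower, 2 as reported, numbered 2 to 3 with 1 array left out, 1 without _x_at and _s_at probe sets, and 5 with each gene taken from its probe set of largest SD. Receptor probe sets called higher, 13 as reported, numbered 8 to 10 with 1 array left out and 6 at the threshold of 0.01. Those called lower, 6 as reported, numbered 3 to 6 and 2. With the replicate block, RXRA (limma adjusted p = 0.0712), RORA (0.0553) and NR1H3 (0.0718) lost their calls, 1 coactivator was higher and 3 clock genes were lower. Deviations of same-numbered arrays correlated at 0.12, 0.05 and -0.08, and those of unlike-numbered arrays at -0.17 to 0.14. With 3 arrays per group, these correlations cannot settle whether the numbers pair the arrays. SMARCA4 reversed to 0.15 without _x_at and _s_at probe sets. Of 252 list counts under alternatives, 210 stayed within 1.5 times the reported count; of 466 values of named list genes, 457 kept direction and call. Alternatives for the lists and for single probe sets, and median centring and robust eBayes for probe set counts, were chosen after seeing the data. The cause of these shifts was not tested. Centring removed all levels, so a receptor near background cannot be told from a well detected one.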
